A study of Mus musculus with 8 samples.

Results

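The TCF/LEF factors, and components of the Wnt signal that reaches them, were followed as 10 genes in lymphoid tissue inducer (LTi) cells of the mouse. They were chosen by name, as the rows of the expression table with the symbols Tcf7, Lef1, Tcf7l1, Tcf7l2, Ctnnb1, Axin1, Axin2, Apc, Gsk3b and Tle3, and all 10 were among the 27179 genes of the table. LTi cells are innate lymphoid cells that, in the fetus, start lymph nodes and Peyer's patches. They had been sorted as live cells that lacked lineage markers, KLRG1, NK1.1 and NKp46 and carried CD127 and CCR6 on the surface. The 4 groups held 2 libraries each, all from mice of strain C57BL/6, whose age the sources used here do not give. They were lamina propria of the small intestine (LP) from Tcf7fl/fl mice with Cre, LP from Tcf7+/+ mice, Peyer's patches (PP) from Tcf7fl/fl mice with Cre, and PP from Tcf7+/+ mice. The Tcf7fl/fl groups with Cre are called labelled knockout here and the Tcf7+/+ groups wild-type. In the labelled knockout mice both copies of Tcf7 carry loxP sites, which Cre recombines in the cells that make it. No Cre is named for the wild-type mice, and it is not stated whether the libraries of a group came from different mice. All p-values therefore refer to the spread among these libraries, which may be technical. In labelled knockout LP, though, sex-linked genes given below differed between the 2 libraries as between a female and a male.

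In the canonical Wnt pathway, a complex of the scaffolds Axin and APC with the kinases GSK3 and CK1 marks beta-catenin for degradation. When a Wnt ligand binds Frizzled and LRP receptors, this complex is held back, and beta-catenin reaches the nucleus and joins the TCF/LEF factors on DNA. Without beta-catenin these factors can bind repressors of the Groucho/TLE family. TCF-1, the product of Tcf7, is known in lymphocytes for its part in T cell and innate lymphoid cell development, and LEF-1 is its closest relative in these cells.

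Levels are given in RPKM, a read number divided by the length of the gene and the size of the library, so that they can be set beside each other across genes. Of the 10 members, 8 reached 1 RPKM in at least 2 of the 8 libraries and were kept for the tests, with 10541 genes in all. Tcf7l1 and Tcf7l2 did not, and are described by level alone. Over the 8 libraries the mean level was 243.4 RPKM for Tcf7, 26.8 for Ctnnb1, 23.2 for Tle3, 14.6 for Lef1, 8.76 for Gsk3b, 4.69 for Axin1, 2.15 for Axin2, 1.82 for Tcf7l1, 0.852 for Apc and 0.308 for Tcf7l2. Only Tcf7 and Gsk3b were at or above 1 RPKM in every library, and Ctnnb1 and Tle3 were in 7 of 8. The other 6 members were at 1 RPKM in 4 libraries or fewer.

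**Figure D1:**
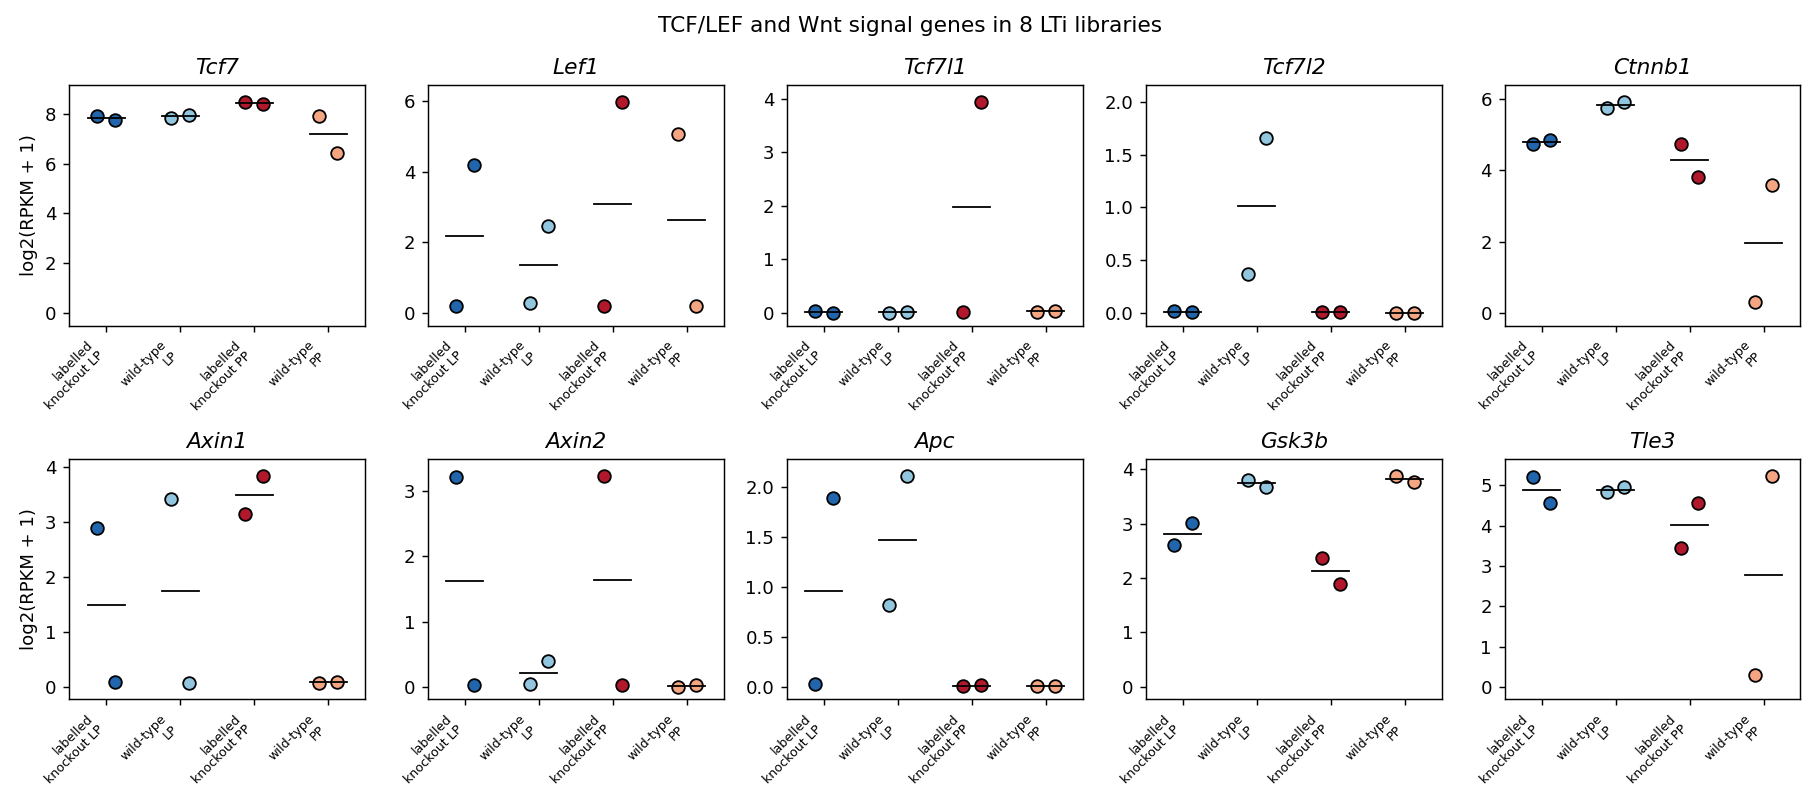
Level of each member as log2(RPKM + 1) in the 8 libraries, with a point for each library, a line at the mean of the 2 libraries of a group, and groups in the order labelled knockout LP, wild-type LP, labelled knockout PP and wild-type PP. Tcf7 stayed between 85.36 and 355.5 RPKM, Gsk3b was lower in all 4 labelled knockout libraries than in all 4 wild-type ones, and Lef1 was split between the 2 libraries of every group.

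All 16 markers of LTi cells and ILC3 that were examined were kept, with a summed level of 6899 to 10460 RPKM per library. Of the genes whose proteins the gate took out, Ncr1, which encodes NKp46, was at 0 in all 8 libraries. Klrb1c, which encodes NK1.1, was at 32.8 RPKM in wild-type PP replicate 1, 8.42 in labelled knockout PP replicate 2 and at most 0.187 elsewhere, and Klrg1 at 10.7 RPKM in wild-type LP replicate 1 and at most 0.0365 elsewhere. Genes of other cells were present too. B and plasma cell markers summed to 7126 to 38720 RPKM, above the LTi and ILC3 sum in every library, with Pax5 at 0. T cell markers summed to 173.2 to 831.5 RPKM and epithelial markers to 133.8 to 669.8 RPKM, and in these bulk libraries a change in the number of cells of a type and a change in RNA per cell cannot be told apart. Depth, which the table does not give, was roughly estimated from its smallest steps at 36.0 to 43.6 M reads per library. The mitochondrial share of the summed RPKM was 13.4% and 13.6% in labelled knockout PP, against 3.06% to 5.06% in the other 6 libraries. Xist, an RNA made from the inactive X chromosome of females, was at 60.3 and 0.0866 RPKM in labelled knockout LP, 0.0712 and 0.0784 in wild-type LP, 0.326 and 1.84 in labelled knockout PP, and 9.60 and 9.23 in wild-type PP. Of Y chromosome genes, Ddx3y was at 0.312 and 67.5 RPKM in labelled knockout LP and 58.9 and 71.3 in wild-type LP. In PP Ddx3y was at 8.93 and 1.36 RPKM in labelled knockout libraries and 0.779 and 0.223 in wild-type ones. Eif2s3y was at 40.7 and 0.141 RPKM in labelled knockout PP and 0.116 and 5.25 in wild-type PP. In labelled knockout LP, Xist was thus high in replicate 1 and Ddx3y in replicate 2. In wild-type PP replicate 2, Kdm5d was at 18.3 RPKM beside Xist. The part of sex in the results was not tested.

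The 3 windows of 250 bases before a transcription start printed here belong to Gsk3b, Lef1 and Axin2. Gsk3b, a kinase gene, is the single member whose labelled knockout and wild-type libraries did not overlap over both tissues. Lef1 and Axin2 are themselves textbook targets of beta-catenin and TCF/LEF. The printed windows are from RefSeq on GRCm38.p6, all on the plus strand, read 5′ to 3′. They were searched on both strands for CTTTGA and CTTTGT, letters of the core that TCF/LEF factors are known to bind, which do not overlap each other. Matches are in capitals (TCAAAG and ACAAAG are the same letters read from the other strand). The Gsk3b window (chr16:38088751-38089000) ends at the annotated start of the gene and held 1 CTTTGA. The Lef1 window (chr3:131156044-131156293) precedes a start inside the gene, held no exon base, and had 2 CTTTGA and 1 CTTTGT. It is shown for its matches: the other 3 Lef1 windows, among them the one that ends at the annotated start of the gene, held neither motif. The Axin2 window (chr11:108920099-108920348) lies inside the annotated span of the gene and held neither. Tcf7 is also among the target genes listed for the analysis below, and its windows, which are not printed, held neither motif.
Gsk3b: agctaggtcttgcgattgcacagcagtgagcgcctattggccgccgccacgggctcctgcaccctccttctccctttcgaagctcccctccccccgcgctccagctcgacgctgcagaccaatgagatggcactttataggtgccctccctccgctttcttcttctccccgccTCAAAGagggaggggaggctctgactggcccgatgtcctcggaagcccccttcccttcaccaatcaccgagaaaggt
Lef1: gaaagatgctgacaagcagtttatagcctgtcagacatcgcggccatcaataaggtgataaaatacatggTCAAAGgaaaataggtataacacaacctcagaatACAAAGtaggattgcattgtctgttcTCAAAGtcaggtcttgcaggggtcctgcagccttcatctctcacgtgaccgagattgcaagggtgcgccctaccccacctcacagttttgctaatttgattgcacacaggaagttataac
Axin2: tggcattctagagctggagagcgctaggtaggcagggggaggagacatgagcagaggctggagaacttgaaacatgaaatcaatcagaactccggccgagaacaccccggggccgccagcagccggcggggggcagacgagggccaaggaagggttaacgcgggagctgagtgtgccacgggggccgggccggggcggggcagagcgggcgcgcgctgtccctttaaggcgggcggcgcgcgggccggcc
Windows were read for 8 members, Axin1 and Apc not among them. Of their 14 windows, 4 held at least 1 of the 2 motifs (1 each of Lef1, Tcf7l1, Tcf7l2 and Gsk3b), and of all 32851 windows 27.6% did, with CTTTGA in 13.8% and CTTTGT in 16.5%. A match is a run of letters and not a measured binding site.

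The first question was whether the libraries labelled knockout had less Tcf7 transcript and whether another TCF/LEF gene was higher in them. No such difference passed the test for Tcf7 or Lef1, and Tcf7l1 and Tcf7l2 were not tested. Tcf7 (Entrez Gene 21414, chr11:52246527-52283383 on GRCm38) stood at 236.7 and 214.8 RPKM in labelled knockout LP, against 229 and 246.4 in wild-type LP. In PP it stood at 355.5 and 337.1 RPKM in the labelled knockout libraries, against 242.5 and 85.36 in wild-type ones. The LP groups overlapped, while in PP both labelled knockout libraries were above both wild-type ones, which stood far apart from each other. The log2 fold change was -0.07 ± 0.48 in LP (SE, limma adjusted p = 1) and 1.26 ± 0.48 in PP (limma adjusted p = 0.365). The PP value rested on a single library: leaving out wild-type PP replicate 2 gave 0.51 and leaving out replicate 1 of that group gave 2.01. The interaction (the LP change minus the PP change) was -1.33 ± 0.67 (limma adjusted p = 0.67).

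The values of Tcf7 cover the whole gene, for which the reference annotation holds 2 transcripts, both protein-coding, and a deleted part is not separated from the rest. The sources used here do not say which exons lie between the loxP sites. The genotype of each library therefore rests on its label. By group means, labelled knockout PP came first with 346.3 ± 13.01 RPKM (SD, n = 2), then wild-type LP with 237.7 ± 12.3, labelled knockout LP with 225.8 ± 15.5 and wild-type PP with 163.9 ± 111.1. Labelled knockout PP did not overlap wild-type LP, but each of the lower 3 groups overlapped the next in this order. T cells also express Tcf7. The 12 T cell markers, 9 of them kept, summed to 173.2 to 261.5 RPKM in labelled knockout LP and 241.2 to 305.3 in wild-type LP, and to 459 to 600.6 RPKM in labelled knockout PP and 656.6 to 831.5 in wild-type PP. In PP the sum was lower in the labelled knockout libraries, where Tcf7 was higher. Most of it was Trbc2, and single markers went the other way, with Cd3e at 40.6 and 56.3 RPKM in labelled knockout PP, against 0.179 and 3.82 in wild-type PP. The part of T cells in the Tcf7 values was not tested.

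Lef1 (Entrez Gene 16842, chr3:131110297-131224357), which encodes LEF-1, was either near 0 or clearly present, and each group held 1 library of each kind. It stood at 0.145 and 17.2 RPKM in labelled knockout LP, 0.222 and 4.48 in wild-type LP, 0.137 and 62.1 in labelled knockout PP, and 32.6 and 0.147 in wild-type PP. In estimated reads, the 4 low libraries had 45.7 to 70.3 and the 4 high ones 1480 to 21200. The groups overlapped in both tissues, with log2 fold changes of 0.82 ± 2.55 in LP and 0.45 ± 2.55 in PP (SE, limma adjusted p = 1 for both). A standard error of that size leaves large differences in either direction undetectable in 2 libraries a group.

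Tcf7l1 and Tcf7l2, which encode TCF-3 and TCF-4, the family members known best from epithelia and stem cells, were detected above 1 RPKM in a single library each. Tcf7l1 (Entrez Gene 21415, chr6:72626371-72789045) reached 14.4 RPKM in labelled knockout PP replicate 2 and at most 0.0324 RPKM in the other 7 libraries. Tcf7l2 (Entrez Gene 21416, chr19:55741797-55933659) reached 2.15 RPKM in wild-type LP replicate 2 and 0.291 in replicate 1, and was at most 0.0105 RPKM in the other 6. Both wild-type PP libraries had 0 for Tcf7l2. Epithelial markers, as described below, summed highest in both labelled knockout PP libraries (590.4 to 669.8 RPKM), while Tcf7l1 was at 0.0187 RPKM in replicate 1. The part of epithelial cells in the Tcf7l1 values was not tested.

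Tcf7 made up most of the summed TCF/LEF level in every library, a ratio that does not depend on the scaling between libraries. Its share of the 4 genes was 99.92% and 92.6% in labelled knockout LP and 99.78% and 97.37% in wild-type LP. It was 99.95% and 81.51% in labelled knockout PP and 88.14% and 99.79% in wild-type PP. The lowest 3 shares were from libraries with high Lef1, and a library with more Lef1 was found in labelled knockout and wild-type groups alike. The summed level was 236.9 and 232 RPKM in labelled knockout LP, 229.5 and 253.1 in wild-type LP, 355.7 and 413.6 in labelled knockout PP, and 275.1 and 85.5 in wild-type PP.

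**Figure D2:**
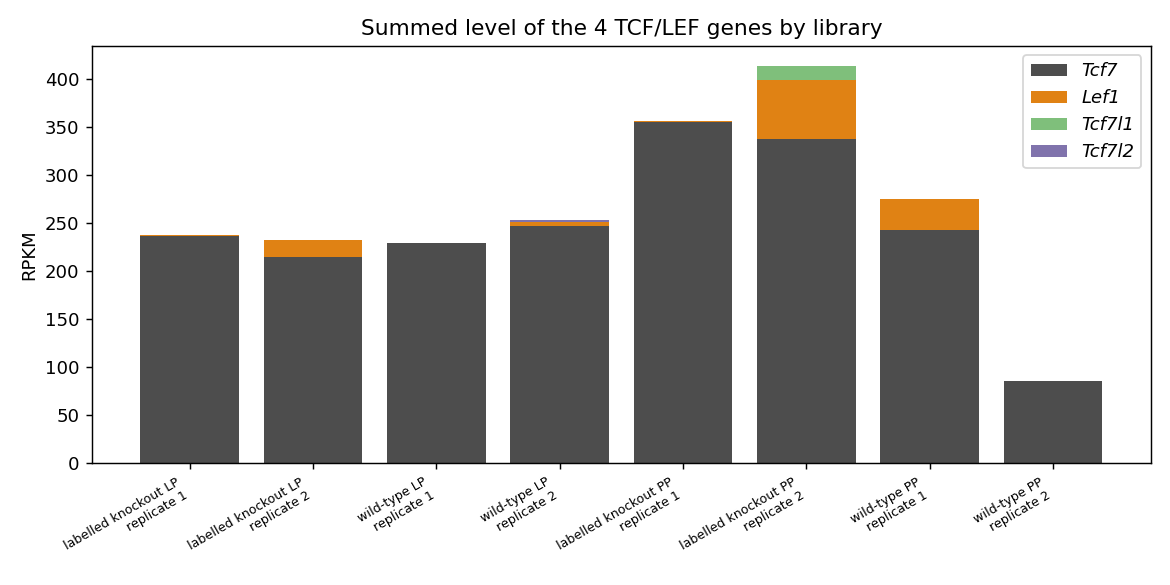
Summed level in RPKM of the 4 TCF/LEF genes, a stacked bar for each library, with labelled knockout left of wild-type in each tissue. Tcf7 (grey) filled 81.51% to 99.95% of every bar, and Lef1 (orange) was visible in 4 libraries, 1 of each group.

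The genes whose profile over the 8 libraries was most like that of Tcf7 were taken from 7706 genes that averaged 5 RPKM or more, by the root mean square distance between log2 profiles, each centred on its own mean. They were Psmb6 (0.181), a proteasome subunit gene, Ppp4c (0.289), a protein phosphatase subunit gene, Cyth4 (0.296), a gene of an exchange factor for Arf GTPases, Cd53 (0.32), a leukocyte tetraspanin gene, and Clta (0.323), a clathrin light chain gene, against a median distance of 1.61 over all candidates. All 5 were at their lowest in the library where Tcf7 was lowest. In wild-type PP replicate 2 Psmb6 stood at 61.7 RPKM, against 159.5 to 263.2 RPKM in the other 7 libraries. Such likeness over 8 libraries that share sorting and amplification is a description only.

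Ctnnb1 (Entrez Gene 12387, chr9:120933400-120960507) encodes beta-catenin, the signal carrier that TCF/LEF factors bind. It stood at 25.5 and 27.7 RPKM in labelled knockout LP, against 52.5 and 59.1 in wild-type LP. In PP it stood at 25.5 and 13.1 RPKM in labelled knockout libraries, against 0.241 and 11.0 in wild-type ones. Both labelled knockout libraries were below both wild-type ones in LP and above both in PP, with the wild-type PP replicates far apart. The log2 fold change was -1.04 ± 1.14 in LP (SE, limma adjusted p = 1) and 2.33 ± 1.14 in PP (limma adjusted p = 0.551). Their difference, the interaction, was -3.37 ± 1.61 (limma adjusted p = 0.635). Of all genes tested, 4.27% likewise were higher in both labelled knockout libraries in PP and lower in both in LP. Without wild-type PP replicate 1, which had an estimated 48 reads of Ctnnb1, the PP change was 0.69 and the interaction -1.73.

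Between tissues in wild-type mice, Ctnnb1 had the smallest adjusted p of any member in any comparison. Its level was 55.8 ± 4.68 RPKM in wild-type LP and 5.61 ± 7.59 RPKM in wild-type PP (SD, n = 2 each), with no overlap. The log2 fold change, LP over PP, was 3.88 ± 1.14 (SE), with an unadjusted p of 0.0111 and a limma adjusted p of 0.149. It passed, at 5.51 (limma adjusted p = 0.0383), when wild-type PP replicate 2 was left out. Wild-type PP was then 1 library, assumed to vary like the other groups. The value was 2.24 without wild-type PP replicate 1. Averaged over both genotypes the tissue effect was 2.20 ± 0.95 (limma adjusted p = 0.242), with the 4 LP libraries at 25.5 to 59.1 RPKM and the 4 PP libraries at 0.241 to 25.5 RPKM.

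Gsk3b (Entrez Gene 56637, chr16:38089001-38246084) encodes the kinase GSK3-beta, which marks beta-catenin for degradation. It stood at 5.08 and 7.09 RPKM in labelled knockout LP, against 12.9 and 11.8 in wild-type LP. In PP it stood at 4.17 and 2.68 RPKM in labelled knockout libraries, against 13.8 and 12.5 in wild-type ones. It was the single member whose 4 labelled knockout libraries all lay below all 4 wild-type ones, which 1.24% of all genes tested did. Its group means were 6.09 ± 1.43 RPKM in labelled knockout LP, 12.4 ± 0.780 in wild-type LP, 3.43 ± 1.06 in labelled knockout PP and 13.1 ± 0.872 in wild-type PP (SD, n = 2 each). The change did not pass the test, with a log2 fold change of -0.93 ± 0.92 in LP (SE, limma adjusted p = 1), -1.69 ± 0.92 in PP (limma adjusted p = 0.629) and -1.31 ± 0.80 on average (limma adjusted p = 0.761). These errors come from a spread shared with genes of like level, many of which had replicates much farther apart than those of Gsk3b, whose largest gap in a group was 0.49 on the log2 scale. The wild-type libraries of LP and PP overlapped, with a log2 difference, LP minus PP, of -0.08 ± 0.92 (SE, limma adjusted p = 1).

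Axin1 (Entrez Gene 12005, chr17:26131217-26195811) encodes the scaffold of the destruction complex. It stood at 6.37 and 0.0606 RPKM in labelled knockout LP and 9.74 and 0.0541 in wild-type LP. In PP it was present in both labelled knockout libraries, at 7.82 and 13.4 RPKM, and near 0 in both wild-type ones, at 0.0544 and 0.0656. The LP groups overlapped and the PP groups did not. The log2 fold change was -0.27 ± 1.47 in LP (SE, limma adjusted p = 1) and 3.41 ± 1.47 in PP (limma adjusted p = 0.454), with an interaction of -3.68 ± 2.08 (limma adjusted p = 0.717). An estimated 7.98 and 10.9 reads stood behind the wild-type PP values, against 1140 and 1990 in labelled knockout PP.

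Axin2 (Entrez Gene 12006, chr11:108917828-108950783), a second Axin gene and a widely used readout of Wnt signalling since beta-catenin induces it, was low or absent in most libraries. It stood at 8.35 and 0.0180 RPKM in labelled knockout LP, 0.0245 and 0.311 in wild-type LP, 8.46 and 0.0176 in labelled knockout PP, and 0 and 0.0212 in wild-type PP. The only libraries above 1 RPKM were 1 of each labelled knockout group, and through these alone it was kept for the tests. With the other library of those groups near 0, the groups overlapped in both tissues, and the log2 fold change was 1.41 ± 1.35 in LP (SE, limma adjusted p = 1) and 1.62 ± 1.35 in PP (limma adjusted p = 0.701).

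Apc (Entrez Gene 11789, chr18:34220297-34322190), the other scaffold of the complex, was detected mainly in LP. It stood at 0.0211 and 2.69 RPKM in labelled knockout LP and 0.765 and 3.32 in wild-type LP, against 0.00630 and 0.0101 in labelled knockout PP and 0.00213 and 0.00730 in wild-type PP. All 4 LP libraries were above all 4 PP libraries, as was so for 6.54% of all genes tested. Apc was kept for the tests only through 2 LP libraries, so this direction was partly set by the filter. In labelled knockout LP replicate 1 an estimated 13.8 reads stood against 1.32 to 6.3 in PP. The average tissue effect, LP over PP, was 1.20 ± 0.62 (SE, limma adjusted p = 0.329) on the log2 scale of RPKM + 1, which understates changes at such low levels.

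Tle3 (Entrez Gene 21887, chr9:61372326-61418497), a co-repressor of the Groucho/TLE family, stood at 36.0 and 22.7 RPKM in labelled knockout LP and 27.4 and 30.1 in wild-type LP. In PP it stood at 9.96 and 22.6 RPKM in labelled knockout libraries and 0.222 and 37.0 in wild-type ones. The groups overlapped in both tissues, with log2 fold changes of -0.00 ± 1.53 in LP (SE, limma adjusted p = 1) and 1.24 ± 1.53 in PP (limma adjusted p = 0.8). Wild-type PP replicate 1, the low library for Tle3, was the low one for Ctnnb1 as well.

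**Figure D3:**
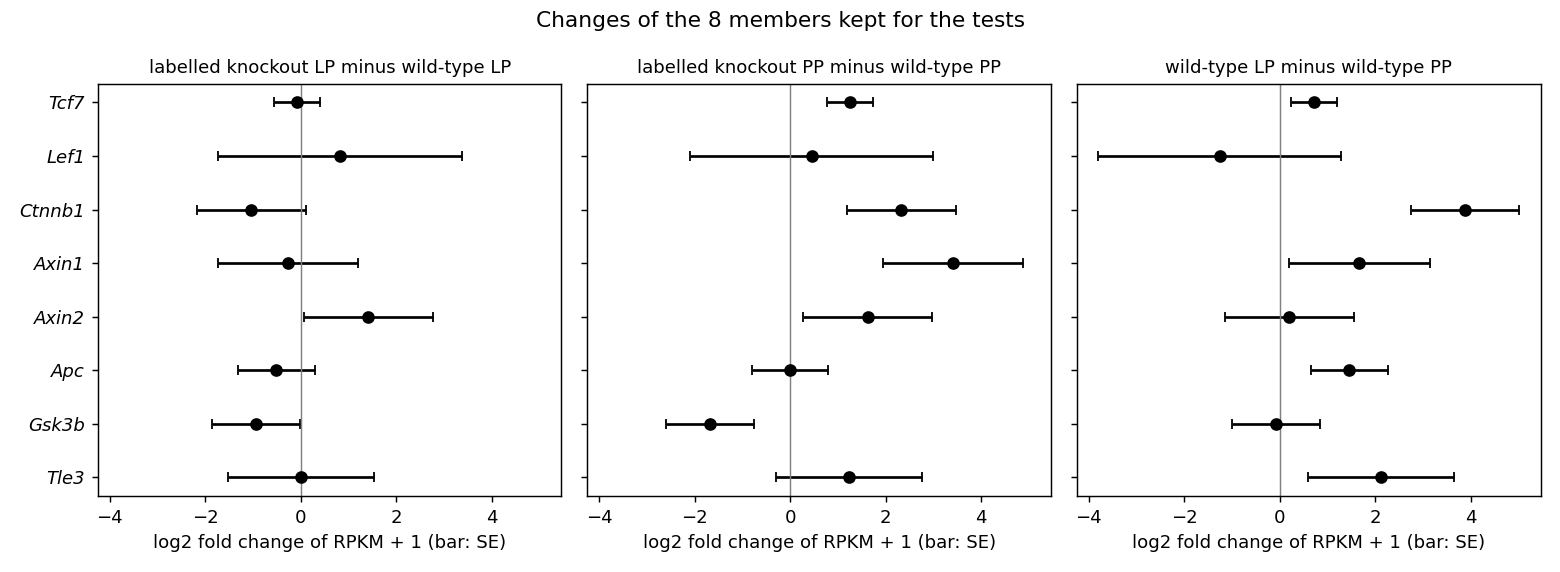
Log2 fold change of RPKM + 1 with its standard error for the 8 members kept, in labelled knockout LP minus wild-type LP, labelled knockout PP minus wild-type PP, and wild-type LP minus wild-type PP. Standard errors ran from 0.48 for Tcf7 to 2.55 for Lef1, and no member passed in any panel.

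Counted together, 0 of the 8 members passed limma at an adjusted p under 0.05 in each of the 6 comparisons made. Of all genes tested, 0.0285% passed for genotype in LP, 0.36% for genotype in PP, 2.13% for tissue in wild-type, 0.0285% for the interaction, 0.00949% for the average genotype effect and 4.33% for the average tissue effect. At an unadjusted p under 0.05, 0 members were found for genotype in LP against 5.27% of all genes, 1 for genotype in PP (Tcf7) against 11.4%, 1 for tissue in wild-type (Ctnnb1) against 17%, 0 for the interaction against 8.75%, 0 for the average genotype effect against 6.81% and 1 for the average tissue effect (Ctnnb1) against 19.4%.

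The labelled knockout libraries of PP did not overlap the wild-type ones in 4 of 8 members, 3 of them higher (Tcf7, Ctnnb1 and Axin1), which 22.7% of all genes were, and 1 lower (Gsk3b), which 14.8% were. In LP, 0 members were higher in this way, against 15.3% of all genes, and 2 were lower (Ctnnb1 and Gsk3b), against 20.3%. For wild-type LP over wild-type PP, 3 members were higher (Ctnnb1, Axin2 and Apc), against 26% of all genes, and 0 were lower, against 21.4%. For Axin2 this order lay near 0, at 0.0245 and 0.311 RPKM in LP against 0 and 0.0212 in PP. The members' median log2 fold change was -0.17 for genotype in LP, with -0.06 over all genes, 1.25 for genotype in PP, with 0.16 over all genes, and 1.09 for tissue in wild-type, with 0.09 over all genes. A positive change was found for 7 of the 8 members in PP and for 2 in LP. Those in PP include Apc at 0.00 ± 0.80 (SE), and Lef1 and Tle3, which turned direction on leaving out a library. The medians over all genes had the same signs, and the share of all genes with a positive change was not counted. Over all 8 libraries, 0 members had every labelled knockout library above every wild-type one (1.66% of all genes), and 0 had every LP library below every PP one (7.05%).

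Other values moved with the PP comparison. Epithelial markers, 13 of 15 of them kept and Lgr5 at 0 in every library, summed to 590.4 to 669.8 RPKM in labelled knockout PP and 149.7 to 336.3 RPKM in wild-type PP. In LP they summed to 195.8 to 434.2 RPKM in labelled knockout libraries and 133.8 to 358.5 in wild-type ones. Fabp2, Krt19, Lgals4, Reg1 and Cldn7 were higher in both labelled knockout PP libraries than in both wild-type PP ones. The other epithelial markers overlapped in PP. Among PP libraries, Fabp1 (167.2 RPKM) and Epcam (52.4 RPKM) were highest in wild-type PP replicate 1. B and plasma cell markers, 11 of 12 of them kept and Pax5 at 0 in every library, summed to 7126 to 7390 RPKM in labelled knockout PP, against 13630 to 13720 in wild-type PP. Most of this sum was Igkc, at 4748 and 4368 RPKM in labelled knockout PP, against 11410 and 11310 in wild-type PP. Ighm and Jchain were lower in both labelled knockout PP libraries too. Cd79b and Igha were higher in both, with Cd79b at 265.7 and 197.1 RPKM, against 59.4 and 49.3. The other kept markers overlapped. The immunoglobulin share of all RPKM was 2.82% and 2.81% in labelled knockout PP, against 6.01% and 6.38% in wild-type PP. The number of genes at 1 RPKM or above was 8103 and 8039 in labelled knockout PP, against 6411 and 6365 in wild-type PP. The part of these differences, and of the mitochondrial share, in the members' values was not tested.

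For several members the replicates of a group stood far apart. In 8 of the 32 pairs of a member and a group (25%), the 2 libraries differed by more than 3 on the log2 scale of RPKM + 1, a factor of 8. Over all genes kept this share was 18.2%, over genes with a mean of 1 to 50 RPKM 21.9%, and over genes with a mean above 200 RPKM 2.8%. The members' pairs past that distance were those of Lef1 in 3 groups, of Axin2 in both labelled knockout groups, and of Axin1, Ctnnb1 and Tle3 in a wild-type group each. Tcf7, at the highest level, had gaps of 0.14 in labelled knockout LP, 0.11 in wild-type LP and 0.08 in labelled knockout PP, but 1.5 in wild-type PP.

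**Figure D4:**
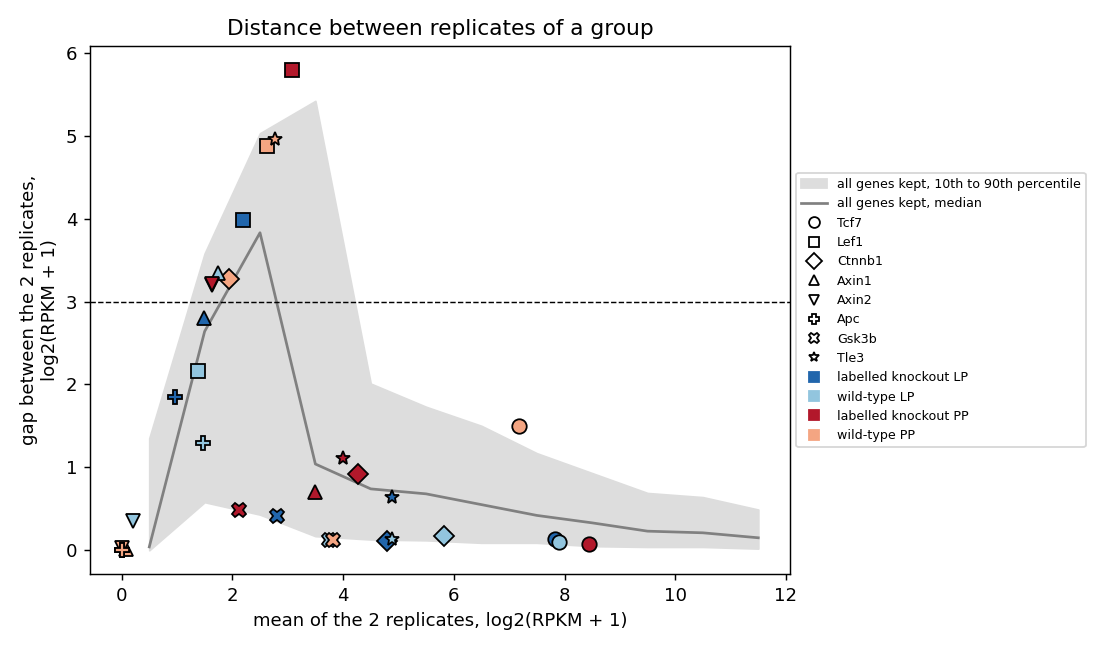
Gap between the 2 libraries of a group against their mean, both on the log2(RPKM + 1) scale, with a symbol for each member and a colour for each group; the grey band spans the 10th to 90th percentile of all genes kept, the line is their median and the dashed line marks a gap of 3. Lef1, Axin1, Axin2, Ctnnb1 and Tle3 had gaps above 3 in at least 1 group. The median gap of all genes was 2.64 at mean levels of 1 to 2, 3.83 at 2 to 3 and 1.04 at 3 to 4.

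The rest of the pathway was read from lists of its parts. Of 21 Wnt ligand and secretion genes in the table, 15 were under 1 RPKM in all libraries and 2 were kept for the tests. Wls, which carries Wnt ligands to the cell surface, was at 41.9 and 108 RPKM in labelled knockout LP and 75.6 and 95.8 in wild-type LP, and at 90.2 and 129 in labelled knockout PP and 159 and 225 in wild-type PP. The most abundant ligand gene, Wnt11, exceeded 1 RPKM in 2 libraries, with 12.7 RPKM in wild-type PP replicate 1 and 2.96 in wild-type LP replicate 2. Wnt10a did so in 1, with 13.7 RPKM in labelled knockout PP replicate 2, the library that also held Tcf7l1.

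Of 25 receptor and Dishevelled genes, 15 were under 1 RPKM in all libraries, 6 were kept and 0 reached 1 RPKM in every library. The receptor gene Fzd4 was at 12.6 RPKM in labelled knockout PP replicate 1, 7.23 in labelled knockout LP replicate 2 and 7.22 in wild-type LP replicate 2, and at most 0.0645 elsewhere. Dvl1, which encodes a relay between receptor and destruction complex, was at 15.9 and 14.6 RPKM in labelled knockout LP and 8.82 and 4.49 in wild-type LP, and at 0.0619 and 0.0669 in labelled knockout PP and 26.9 and 0.0807 in wild-type PP. Its relative Dvl2 exceeded 1 RPKM in 1 library of each PP group, at 4.58 RPKM in labelled knockout and 24.8 in wild-type.

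Of 18 inhibitor genes, 12 were under 1 RPKM in all libraries and 4 were kept. Dkk3, a member of the Dickkopf family, was at 30.6 and 108 RPKM in labelled knockout LP, 91.1 and 66.5 in wild-type LP, 109 and 116 in labelled knockout PP and 184 and 278 in wild-type PP. Rnf43, a ligase gene that clears Frizzled receptors and is also a Wnt target, was at 0.27 and 0.0944 RPKM in labelled knockout LP, 0.187 and 17.4 in wild-type LP, 8.73 and 35.2 in labelled knockout PP and 38.8 and 33 in wild-type PP. Kremen1, a Dickkopf receptor gene, ranged from 0.00529 to 14.4 RPKM, with 1 library near 0 in wild-type LP and in labelled knockout PP, and both in wild-type PP.

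Inside the cell the pathway was better covered. Of 19 genes of the destruction complex and its regulators 17 were kept, and 6 reached 1 RPKM in every library. Ppp2r1a, a phosphatase scaffold gene, was at 149 to 334 RPKM and Csnk1a1, which encodes the kinase CK1-alpha, at 106 to 256 RPKM. Csnk1d, another CK1 gene, was lower in the labelled knockout libraries of both tissues, as Gsk3b was, without passing the test. It stood at 28.5 and 27.9 RPKM in labelled knockout LP, against 56.6 and 42.1 in wild-type LP, and at 13.2 and 0.59 RPKM in labelled knockout PP, against 94.4 and 76.1 in wild-type PP. Its log2 fold change was -0.77 ± 1.04 in LP (SE, limma adjusted p = 1) and -4.17 ± 1.04 in PP (limma adjusted p = 0.171).

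Of 21 genes of beta-catenin and its nuclear partners 17 were kept. Tle5, a short TLE relative, was at 94.2 and 50.7 RPKM in labelled knockout LP, 45.1 and 90.9 in wild-type LP, 222 and 224 in labelled knockout PP and 157 and 146 in wild-type PP. Smarca4, a chromatin remodeller gene, was at 6.14 to 51 RPKM, and the co-repressor gene Ctbp1 at 0.217 to 52 RPKM with its lowest value in wild-type PP replicate 1, as for Ctnnb1 and Tle3.

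**Figure D5:**
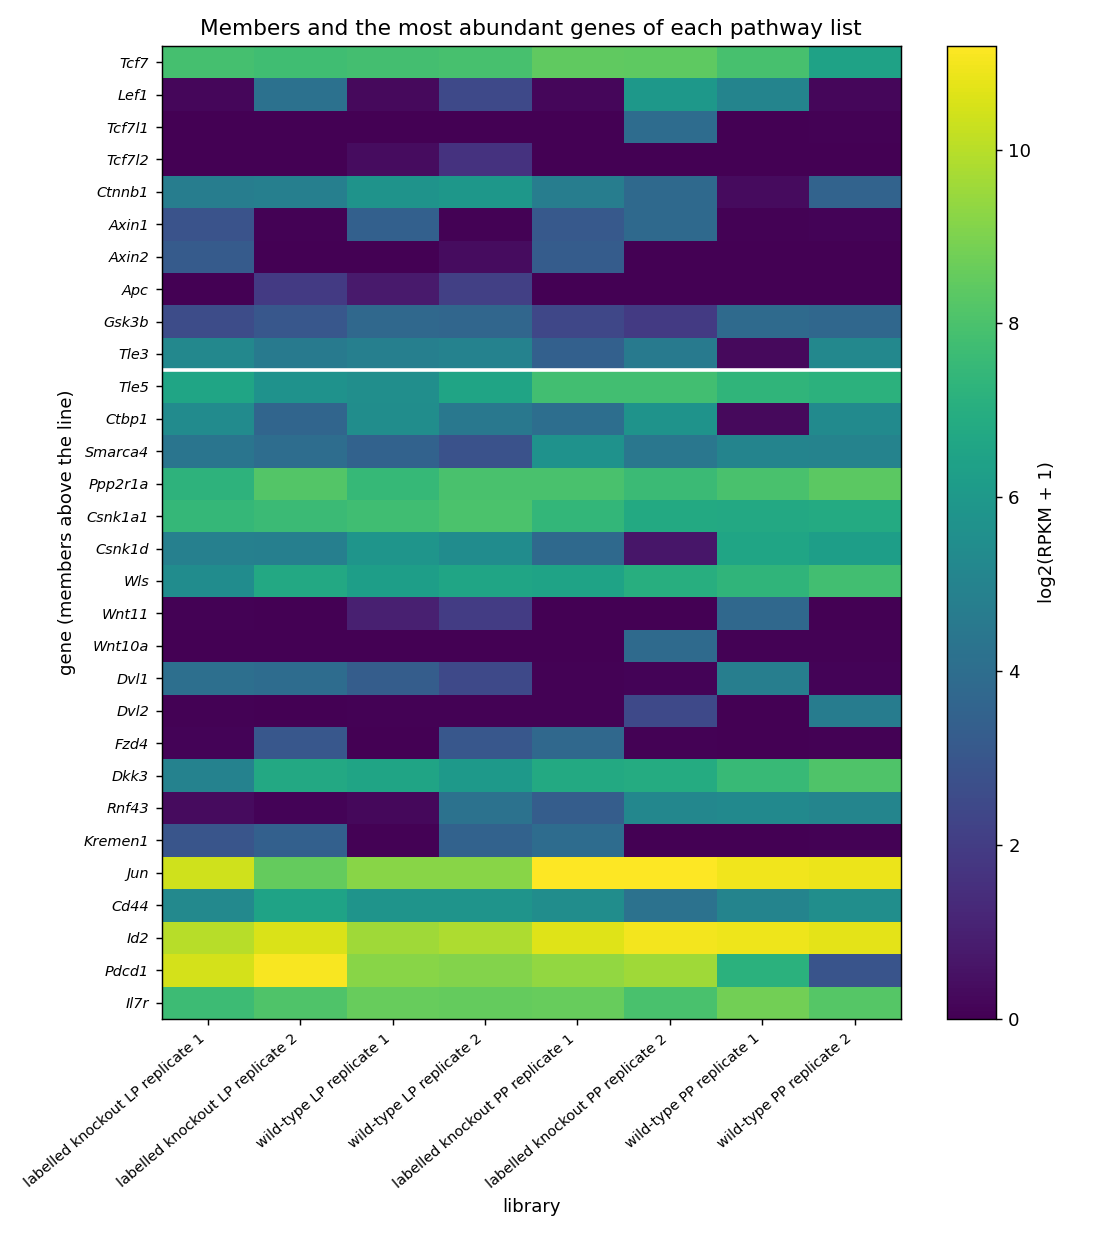
Heat map of log2(RPKM + 1) in the 8 libraries, members above the white line and the 3 most abundant other genes of each list below it. Tcf7 and the intracellular genes Ppp2r1a and Csnk1a1 were high in every library, while Wnt11, Wnt10a, Dvl2 and Fzd4 were near 0 in most.

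None of these lists held a gene that passed for genotype. In LP and PP, 0 of the 9 target genes of beta-catenin and TCF/LEF that were kept passed in either direction. These include the members Tcf7, Lef1 and Axin2, whose results are given above. Of the 14 kept genes tied to TCF-1 in lymphocytes, 0 passed in either direction. The median log2 fold change of the targets was 0.26 in LP and 0.27 in PP, and that of the lymphocyte genes was -0.16 in LP and 0.66 in PP, beside -0.06 in LP and 0.16 in PP over all genes tested. Of 66 genes of any list that were kept, 4 (Csnk1e, Myc, Pdcd1 and Bcl6) were higher in both labelled knockout libraries than in both wild-type ones in each tissue, which 3.92% of all genes were, and 3 (Csnk1d, Gsk3b and Ccr7) were lower, which 3.42% were. Pdcd1, the gene of the inhibitory receptor PD-1, was at 1430 and 2170 RPKM in labelled knockout LP, against 589 and 555 in wild-type LP, and at 658 and 763 in labelled knockout PP, against 143 and 6.47 in wild-type PP. Its average change of 3.03 ± 0.82 did not pass (SE, limma adjusted p = 0.699). Il7r, the gene of CD127, was at 206 and 274 RPKM in labelled knockout LP and 385 and 369 in wild-type LP, and at 386 and 251 in labelled knockout PP and 454 and 301 in wild-type PP.

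Between tissues, on average over genotypes, 3 of the 66 listed genes kept passed, with 4.33% of all genes passing in that comparison. Jun, an AP-1 gene and Wnt target, fell by 1.72 ± 0.31 in LP relative to PP (log2, SE, limma adjusted p = 0.0113). It stood at 1320 and 376 RPKM in labelled knockout LP and 580 and 597 in wild-type LP, against 2340 and 2330 in labelled knockout PP and 2000 and 1880 in wild-type PP. Id2, a gene needed for innate lymphoid cells, fell by 0.83 ± 0.19 (limma adjusted p = 0.0344), and Ccr7, a homing receptor gene, rose by 1.78 ± 0.42 (limma adjusted p = 0.0414). Ccr7 stood at 87.4 and 69.8 RPKM in labelled knockout LP and 136 and 158 in wild-type LP, against 21.3 and 14.3 in labelled knockout PP and 42 and 67.1 in wild-type PP. In the same libraries B and plasma cell markers summed to 24480 to 38720 RPKM in LP, against 7126 to 13720 in PP, and T cell markers to 173.2 to 305.3 RPKM in LP, against 459 to 831.5 in PP. Most of the B and plasma cell sum was Igkc and Igha. Single markers went the other way, with Cd79b and Ighm lower in every LP library than in every PP one. The part of these cell types in these 3 calls was not tested. The call of Jun held under 14 of 15 other settings, being lost with no filter on low genes (limma adjusted p = 0.107). The calls of Id2 and Ccr7 each held under 6 of 15. That of Id2 was lost without labelled knockout PP replicate 2, either wild-type PP library, labelled knockout LP replicate 1 or either wild-type LP library (limma adjusted p = 0.0828 to 0.113), and under both rescalings between libraries (0.0507 and 0.167) and with no filter (0.187). That of Ccr7 was lost without either labelled knockout PP library, wild-type PP replicate 1 or any single LP library (0.0667 to 0.131), and with a pseudocount of 0.1 (0.0513).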

How the data were processed

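Sorted LTi cells gave 8 libraries, 2 in each of 4 groups taken from the labels. Per the labels, RNA was isolated with a miRNeasy kit and amplified as cDNA by PCR (Smart-seq2). Per the submitters' processing notes, Subread and featureCounts were used with mm10. The sources used here give no version, annotation or strand setting, so reads of overlapping or antisense genes cannot be told apart. The deposited values are RPKM on a log2 scale, log2(RPKM + 1), with 0.0001 for 0, which was read as 0. The log base was inferred: with log2 undone, RPKM times exon length summed to 134% to 151% of the total that RPKM implies over 21572 genes, against 13.6% to 16.1% with none undone. RPKM are not counts, so no count test was used.

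A gene was kept if at least 2 libraries had 1 RPKM or more (10541 of 27179). With a pseudocount of 1, limma 3.58.1 (R 4.3.3; lmFit, eBayes with trend) was run two-sided on log2 values, with Benjamini-Hochberg adjustment over all genes kept and a threshold of 0.05. A model of 4 group means gave genotype effects (labelled knockout minus wild-type) in LP and in PP, the wild-type tissue effect (LP minus PP) and the interaction. An additive model gave average effects over 4 against 4 libraries and treats them as independent, although mice may have given both tissues. The fit was also run on simulated data, and the outcome of that run is not given here. Depth was roughly estimated from the steps of the lowest values in 122 genes. Symbols and positions came from RefSeq on GRCm38.p6, matched to 25275 identifiers. All 10 members are named in every comparison. Of each pathway list, genes that passed and the 3 others of highest mean RPKM are named, while Csnk1e, Myc and Bcl6 were picked out by their values. The results of 1 gene of the lists are left out here. The members and lists were chosen with earlier results of these data known. Alternatives were pseudocounts of 0.1 and 5, no filter and a filter on the mean, 2 rescalings, a replicate block, only the 2 groups compared, and leaving out each library.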

Additional observations from a re-analysis of the deposited data

Results flagged for a closer look

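Of the 8 members kept for the tests, Ctnnb1 was the 1 whose genotype difference ran in opposite directions in the 2 tissues with no overlap: both labelled knockout libraries were below both wild-type ones in LP (25.5 and 27.7 against 52.5 and 59.1 RPKM) and above both in PP (25.5 and 13.1 against 0.241 and 11.0 RPKM). The test of the difference itself, the limma interaction, gave -3.37 ± 1.61 (SE) on the log2 scale with an adjusted p of 0.635, so it did not pass, and 4.27% of all genes tested showed the same pattern.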

How the results depend on the processing

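Of 738 member values under another setting, 691 kept their direction and their side of the threshold, 46 turned direction, 42 of them on leaving out a library, and 1 passed. Gsk3b kept its direction for genotype in LP, in PP and on average under every setting run. Since its groups did not overlap in either tissue, only the rescalings between libraries could have turned it. No member passed in any comparison under any setting, except Ctnnb1 for tissue in wild-type without wild-type PP replicate 2 (members passing 0 to 1). The gap between replicates limits what could be seen: the median SE over all genes was 1.24 for 2 groups, while members near 0 rest on few estimated reads. No pairing by replicate number was seen (r of -0.021 to 0.010 between groups' replicate differences over 10541 genes). This cannot show whether libraries of the same number came from the same mice. With the replicate block Ccr7 did not pass for the average tissue effect (limma adjusted p = 0.0652).

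The counts of all genes passing moved more. Genotype in LP had 3 in the reported fit, 0 with a pseudocount of 0.1, 56 with no filter, 0 with the replicate block, 0 with only the 2 groups compared and 0 to 3 without a library. Genotype in PP had 38, 76 with no filter, 16 with the replicate block, 0 with only the 2 groups and 1 to 34 without a library. Tissue in wild-type had 224, 99 with the replicate block, 0 with only the 2 groups and 0 to 192 without a library. The interaction had 3, 10 with a pseudocount of 5, 36 with no filter, 1 with the replicate block and 0 to 2 without a library. The average genotype effect had 1, 2 with a pseudocount of 5 and 1 to 4 without a library. The average tissue effect had 456, 282 with no filter and 225 to 438 without a library. The cause was not tested, beyond the fewer libraries or genes of some settings.

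Median-of-ratios rescaling and rescaling without immunoglobulin and mitochondrial genes moved the median of all genes for tissue in wild-type to 0.35 and 0.22, from 0.09 as deposited, and the average tissue effect to 0.11 under the first, from -0.10. The difference of Gsk3b between wild-type tissues turned to 0.26 and 0.08 under them, and that of Tle3 for genotype in LP to 0.05 under the first and to 0.00 with a pseudocount of 5.

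Leaving out each library in turn, log2 fold changes that turned had these ranges. For genotype in LP they were -1.18 to 2.81 for Lef1, -1.94 to 1.41 for Axin1, -0.19 to 3.01 for Axin2, -1.43 to 0.42 for Apc and -0.32 to 0.32 for Tle3, and for genotype in PP -2.45 to 3.34 for Lef1 and -1.24 to 3.72 for Tle3. For tissue in wild-type they were -0.03 to 1.47 for Tcf7, -3.70 to 1.17 for Lef1, -0.01 to 3.34 for Axin1 and -0.35 to 4.60 for Tle3. For the interaction they were -2.53 to 3.27 for Lef1, -1.81 to 1.40 for Axin2, -1.44 to 0.41 for Apc and -3.72 to 1.24 for Tle3. For the average genotype effect they were -0.49 to 1.83 for Lef1, -0.35 to 1.01 for Ctnnb1, -0.57 to 0.17 for Apc and -0.50 to 1.49 for Tle3. For the average tissue effect they were -0.38 to 0.22 for Tcf7, -2.27 to 0.04 for Lef1, -1.21 to 0.76 for Axin1 and -0.53 to 0.76 for Axin2.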

Other observations

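Myc, a textbook target of beta-catenin and TCF/LEF and a driver of cell growth, was picked out by its values. It was at 1 RPKM or above only in labelled knockout libraries, through which it was kept for the tests. It stood at 6.97 and 1.27 RPKM in labelled knockout LP, against 0.0326 and 0.0745 in wild-type LP, and at 19.9 and 14.5 RPKM in labelled knockout PP, against 0.0535 and 0.0282 in wild-type PP. All 4 labelled knockout libraries were above all 4 wild-type ones, which 1.66% of all genes tested were, and the average log2 fold change was 3.06 ± 0.89 (SE, limma adjusted p = 0.709). Csnk1e, another CK1 gene, had the same order within each tissue, at 0.181 and 8.35 RPKM in labelled knockout LP, against 0.0283 and 0.00931 in wild-type LP, and at 7.63 and 10.2 in labelled knockout PP, against 0.0279 and 0.0816 in wild-type PP. It too was kept through labelled knockout libraries alone, and its change of 2.46 ± 0.87 on average did not pass (limma adjusted p = 0.709). Csnk1d, of the same family, was lower in labelled knockout libraries, with an average of -2.47 ± 0.88 (limma adjusted p = 0.709).

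Bcl6, picked out by its values, is a repressor gene of follicular lymphocytes. Its levels were 10.1 and 26.1 RPKM in labelled knockout LP, against 4.93 and 8.18 in wild-type LP, and at 17.6 and 45.5 in labelled knockout PP, against 0.351 and 5.77 in wild-type PP. Its average change was 2.26 ± 0.93 (SE, limma adjusted p = 0.726).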
